A study of Mus musculus with 6 samples.

Results

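A set of 10 genes of mucin-type O-glycosylation were followed in fetal mouse lung epithelium of Grhl2 conditional knockout embryos and their controls, out of 27179 genes in the count table. They were chosen by name and role, with earlier results of these data known: 7 polypeptide GalNAc transferases (Galnt1, Galnt2, Galnt3, Galnt4, Galnt7, Galnt11 and Galnt12) and 3 membrane mucins (Muc1, Muc4 and Muc20). Grhl2 encodes a grainyhead-like transcription factor of epithelial cells. Cells carrying EpCAM, a surface protein of epithelia, had been sorted from dissociated lungs from E16.5 embryos and profiled by stranded mRNA sequencing. The 3 Grhl2_cKO libraries (replicates 1, 5 and 10) came from Shh-Cre;Grhl2f/- embryos, which carry 1 floxed and 1 null Grhl2 allele. The 3 Control libraries (replicates 1, 3 and 7) came from Shh-Cre;Grhl2f/+ embryos, which carry 1 floxed and 1 intact allele. Both groups therefore carried the same Cre driver, named for Shh, a gene active in lung epithelium, and each group had 2 male libraries and 1 female library. The Controls thus carried Cre and a floxed allele and were not wild type, and no wild-type library was in the series. The labels do not say whether a library came from 1 embryo or from a pool, so the p-values below measure the spread between these libraries.

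Mucin-type O-glycosylation starts in the Golgi, where a polypeptide GalNAc transferase links N-acetylgalactosamine to a serine or threonine of a passing protein. Other enzymes then lengthen this first sugar and cap the chain with sialic acid, sulfate or fucose. Mucins are the densest carriers of such chains: their extracellular part holds long stretches rich in serine and threonine. The membrane mucins stay anchored in the apical surface of epithelial cells, where they form part of the surface coat of the airway, whereas secreted mucins such as Muc5ac and Muc5b form the airway gel.

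The difference between enzymes and substrates could be read in the coding sequences of the 10 genes (longest coding transcript of GENCODE M21, genome build GRCm38). Codons for serine or threonine made up 34.9% of Muc1 (220 of 631 codons), 38.1% of Muc4 (1322 of 3470) and 35.2% of Muc20 (242 of 688), against 9.0% to 11.4% of the 7 transferases. In the richest window of 40 codons, 23 codons of Muc1, 25 of Muc4 and 22 of Muc20 were of this kind, against 8 to 10 in the transferases. The windows below run 5′ to 3′ along the coding strand, with serine and threonine codons in capitals. They are shown because these codons are the possible attachment points of the sugar. Muc1 lies at chr3:89230684-89230803 on the plus strand, both Muc4 stretches at chr16:32754172-32754291 and chr16:32754544-32754663 on the plus strand, and Muc20 at chr16:32793308-32793427 on the minus strand. The window of Galnt3, at chr2:66102497-66102616 on the minus strand, stands for an enzyme.
Muc1: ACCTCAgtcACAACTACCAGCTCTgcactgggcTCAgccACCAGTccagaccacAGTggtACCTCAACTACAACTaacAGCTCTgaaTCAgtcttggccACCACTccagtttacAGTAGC
Muc4: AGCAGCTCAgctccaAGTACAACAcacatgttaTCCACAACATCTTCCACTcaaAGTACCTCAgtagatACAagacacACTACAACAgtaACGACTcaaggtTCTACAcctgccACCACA
Muc4 next repeat: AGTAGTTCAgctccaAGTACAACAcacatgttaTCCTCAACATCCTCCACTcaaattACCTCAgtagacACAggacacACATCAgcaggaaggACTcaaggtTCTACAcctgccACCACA
Muc20: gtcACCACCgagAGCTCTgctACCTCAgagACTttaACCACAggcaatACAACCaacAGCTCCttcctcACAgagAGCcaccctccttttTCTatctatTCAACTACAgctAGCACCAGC
Galnt3: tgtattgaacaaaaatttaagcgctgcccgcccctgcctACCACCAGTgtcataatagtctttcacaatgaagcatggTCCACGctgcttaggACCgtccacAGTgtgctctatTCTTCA
Of these 40 codons, 23 were serine or threonine codons in Muc1, 22 in Muc20 and 9 in Galnt3. Both Muc4 stretches belong to its tandem repeat, whose unit was 372 bases long. The first was taken only from windows with at least 90% of bases identical 372 bases further on. Their identity, 108 of 120 bases, was therefore bounded by this choice. Over a span of 300 bases, Muc4 was 95.3% identical to itself 372 bases further on. The best such match in Muc1 was 86.0% at 312 bases and in Muc20 it was 55.0% at 72 bases, whereas the transferases reached 34.0% to 38.7%. At its best shift, Muc4 thus matched itself more closely than Muc1 did. The shift of 312 bases in Muc1 was not shown to be the length of a single repeat unit. Reads from such repeats can be placed at more than 1 position, and the treatment of such reads by the authors was not given in the sources used here.

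**Figure D1:**
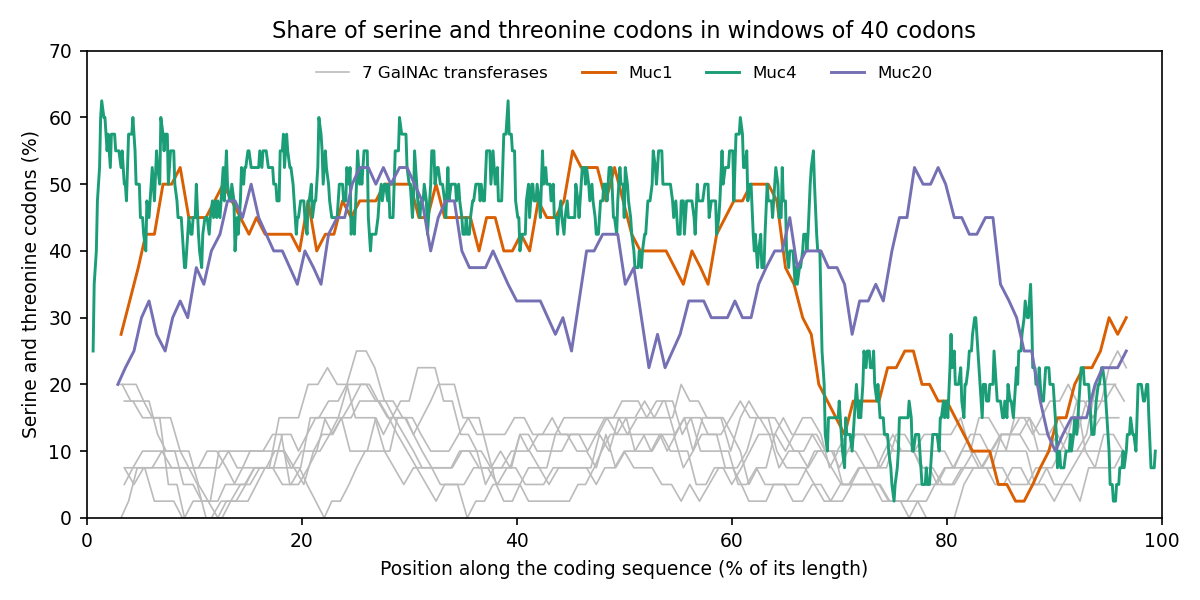
Share of serine and threonine codons (vertical axis, percent) in windows of 40 codons along the coding sequence (horizontal axis, percent of its length), with 1 line per mucin and 1 grey line per transferase. The Muc4 line reaches 62.5%, the Muc1 line 55.0% and the Muc20 line 52.5%, whereas the highest transferase window reaches 25.0%.

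The libraries held 13472216 to 17228762 counts, so that 3 counts corresponded to 0.174 to 0.223 CPM (counts scaled to library size, with edgeR's TMM factors). Grhl2 stood at 105, 109 and 115 CPM in Grhl2_cKO replicates 1, 5 and 10, against 149, 148 and 146 CPM in Control replicates 1, 3 and 7. That is 74.5% of the Control level (log2 fold change −0.43 ± 0.05 SE, edgeR quasi-likelihood adjusted p = 0.00204), and the groups did not overlap. The exons that the null and floxed alleles lack were not given in the sources used here. This level checks the labels only in part. Epcam, the marker of the sort, was at 335, 346 and 402 CPM in Grhl2_cKO and 558, 543 and 501 CPM in Control (−0.56 ± 0.08, adjusted p = 0.00527). Summed markers of surfactant-producing type II cells were at 16800 to 20400 CPM in Grhl2_cKO and 17030 to 18760 CPM in Control, so both groups carried lung epithelial RNA. Mesenchymal markers summed to 876 to 1718 CPM in Grhl2_cKO and 906 to 1449 CPM in Control, so the sorted cells also carried RNA of other cell types. Heart muscle markers summed to 214 to 401 CPM in Grhl2_cKO, highest in replicate 1, and 159 to 186 CPM in Control, with 1 of 6 tested genes higher. Neuroendocrine markers summed to 86.7 to 100.3 CPM in Grhl2_cKO and 69.9 to 77.9 CPM in Control, with 2 of 7 tested genes higher. The part of these cells in the results below was not tested.

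All 10 genes passed the filter on low counts. Per kilobase of the gene length given in the authors' table, Muc1 had the highest level, at 156 ± 17.5 CPM per kb in Grhl2_cKO and 193 ± 14.5 in Control (SD, n = 3 each). Galnt2 came next at 47.7 CPM per kb in Grhl2_cKO and 51.0 in Control, so that Muc1 stood 3.79-fold above it in Control. Galnt1 was at 47.1 CPM per kb in Grhl2_cKO and 45.8 in Control, and its Control libraries overlapped those of Galnt2. Galnt3 followed at 15.2 CPM per kb in Grhl2_cKO and 15.9 in Control, with Galnt1 2.89-fold above it in Control. Galnt12 (12.3 CPM per kb in Grhl2_cKO, 13.4 in Control), Galnt11 (11.9 and 12.4) and Galnt7 (10.2 and 9.08) formed the next steps. Muc4 (7.76 CPM per kb in Grhl2_cKO, 8.34 in Control) overlapped Galnt7 in Control, and Galnt4 (7.03 and 7.50) overlapped Muc4. Muc20 was the lowest, at 0.143 CPM per kb in Grhl2_cKO and 0.146 in Control, with Galnt4 51.5-fold above it in Control. The order of the 10 group means was the same in both genotypes.

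**Figure D2:**
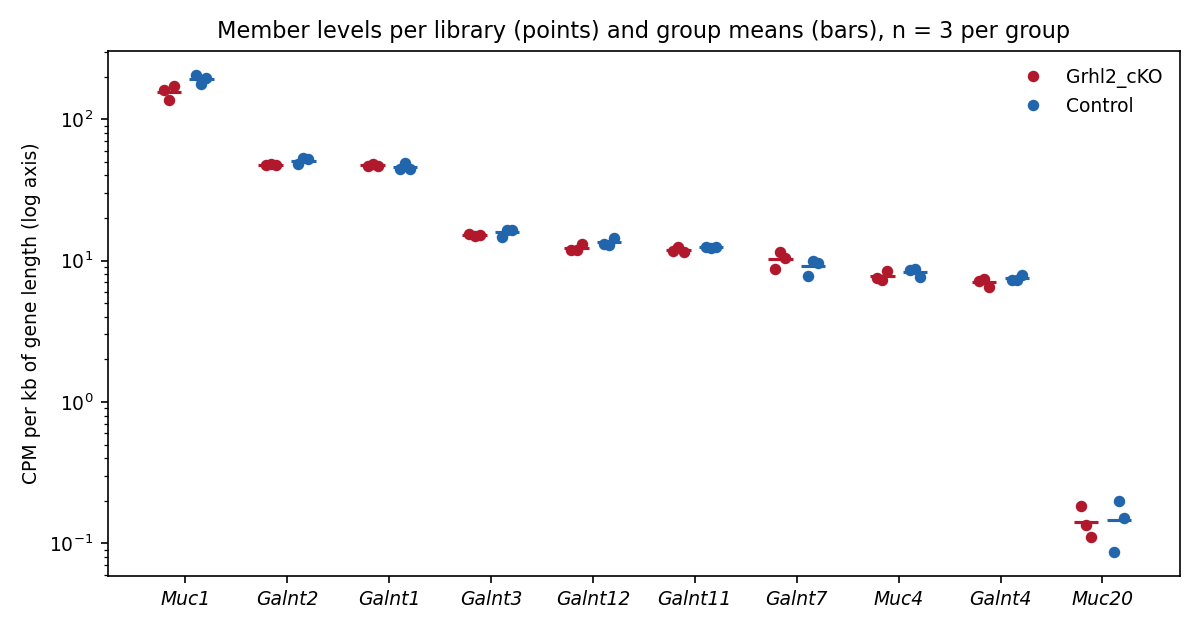
Level of each gene in CPM per kb of gene length (vertical log axis), with Grhl2_cKO libraries in red left of Control libraries in blue, and bars at the means of 3 libraries. Muc1 lies highest, and its group means are 156 CPM per kb in Grhl2_cKO and 193 in Control. Muc20 lies lowest, at 0.143 in Grhl2_cKO and 0.146 in Control.

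Read as shares of the summed level per kilobase, a pair of enzymes held about as much as all other transferases. Galnt1 and Galnt2 together made up 48.3% to 50.5% of the 19 measured GalNAc transferases in Grhl2_cKO and 48.8% to 53.3% in Control. The 7 transferases followed here made up 77.3% to 81.0% in Grhl2_cKO and 78.2% to 84.0% in Control. Of the remainder, Galnt18 alone held 13.4% to 17.4% in Grhl2_cKO and 10.8% to 16.3% in Control. Among 15 measured mucins, Muc1 held 89.9% to 91.7% in Grhl2_cKO and 91.0% to 93.5% in Control, and Muc4 held 4.32% to 4.80% in Grhl2_cKO and 3.68% to 4.46% in Control. The ranges of the groups overlapped in every one of these shares.

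Between genotypes, none of the 10 genes passed the threshold (edgeR quasi-likelihood test, adjusted p under 0.05 over 14842 genes tested), whereas 3.59% of all tested genes did, 1.21% higher and 2.38% lower in Grhl2_cKO. At an unadjusted p under 0.05 there was 1 gene of the 10, Muc1, against 13.3% of all tested genes. DESeq2 called 1 of the 10, again Muc1, and limma-voom called 0. The groups did not overlap in 1 of the 10 genes, against 18.1% of all tested genes (9.9% lower and 8.16% higher in Grhl2_cKO), so 1 of 10 is no larger a share than this background. The median log2 fold change of the 10 genes was −0.08, with 8 of 10 below 0. Over all tested genes the median was −0.00, with 7639 of 14842 below 0.

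Muc1, the membrane mucin that coats the apical surface of lung epithelial cells, had the largest fold change of the 10 genes. The gene (Entrez 17829) lies at chr3:89229056-89233381 (RefSeq positions throughout, GRCm38.p6). It stood at 357, 305 and 382 CPM in Grhl2_cKO replicates 1, 5 and 10, against 462, 398 and 437 CPM in Control replicates 1, 3 and 7. Every Grhl2_cKO library lay below every Control library, and Grhl2_cKO replicate 5 was the lowest of the 6. The mean was 348 ± 39.2 CPM in Grhl2_cKO and 432 ± 32.3 CPM in Control (SD, n = 3 each), or 80.6% of the Control level with a 95% interval of 69.9% to 92.8%. The log2 fold change was −0.31 ± 0.09, with an edgeR adjusted p of 0.118 that did not pass the threshold. Over the 14 alternative fits the adjusted p ran from 0.0169, with DESeq2, to 0.356, and only DESeq2 put it past the threshold. Of the tested genes, 9.9% lay below Control in every library in this way.

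Marker lists of the sorted cells are given beside Muc1, since several of them differed between the groups. Relative to the Control mean, Muc1 was at 82.7%, 70.6% and 88.3% in Grhl2_cKO replicates 1, 5 and 10. The summed general epithelial markers were at 81.8%, 81.4% and 88.2% of it in the same libraries (2367 to 2563 CPM in Grhl2_cKO, 2710 to 3200 CPM in Control), and 1 of 7 list genes, Epcam, passed the threshold, as lower. Secretory cell markers summed to 276 to 446 CPM in Grhl2_cKO and 606 to 741 CPM in Control, with 4 of 9 tested genes lower. Ciliated cell markers summed to 91.5 to 131 CPM in Grhl2_cKO and 173 to 235 CPM in Control, with 8 of 11 tested genes lower. Not all lists of epithelial cells were lower. Distal tip markers summed to 1918 to 2075 CPM in Grhl2_cKO and 1722 to 2066 CPM in Control, with 0 of 6 tested genes called. Type I markers summed to 1727 to 1916 CPM in Grhl2_cKO and 1496 to 1846 CPM in Control, with 1 of 8 tested genes higher. The sums of the type II markers, given above, overlapped, but 1 of 8 tested genes was lower and 0 were higher. In that list 4 genes had an unadjusted edgeR p under 0.05, and log2 fold changes ran from −1.13 to 0.45. Neuroendocrine markers are also given above. None of these lists was at 0 in a library. Their part in the level of Muc1 was not tested, and in sorted bulk RNA fewer cells of a type and less RNA per cell cannot be told apart. The 7 transferases summed to 574 to 594 CPM in Grhl2_cKO and 564 to 618 CPM in Control. These ranges overlapped, unlike those of the general epithelial, secretory and ciliated lists.

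**Figure D3:**
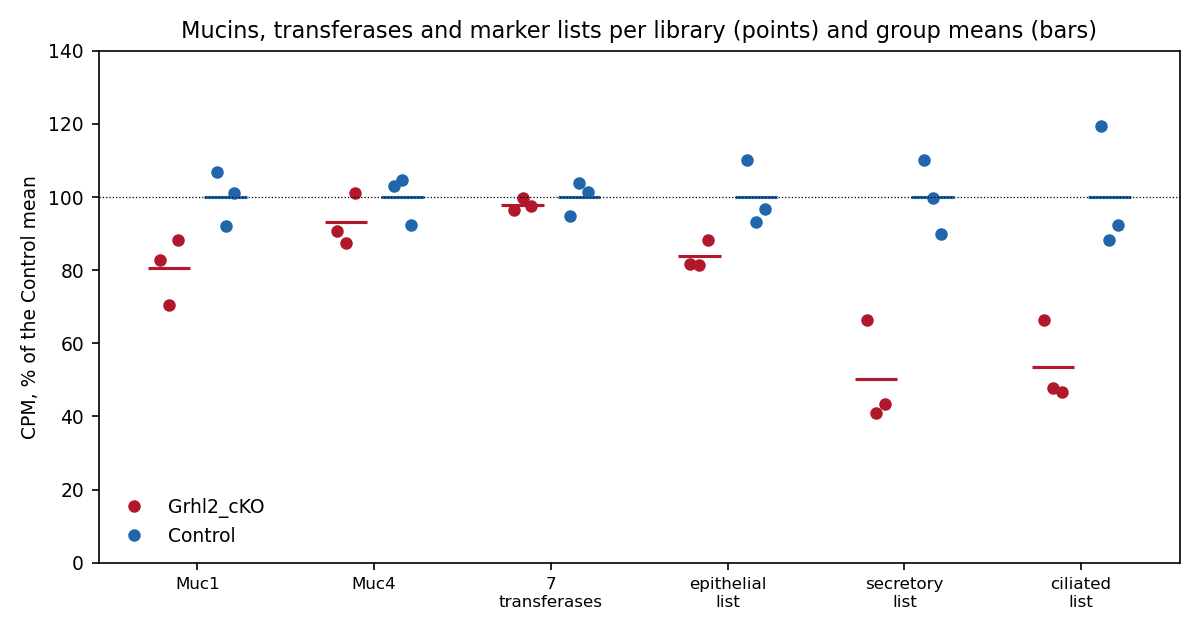
CPM relative to the mean of the Control libraries (vertical axis, percent) for Muc1, Muc4, the summed 7 transferases and summed epithelial, secretory and ciliated marker lists, with Grhl2_cKO libraries in red left of Control libraries in blue and bars at the means. Muc1 lies at 70.6% to 88.3% in Grhl2_cKO and the transferases at 96.4% to 99.8%, whereas the secretory list reaches down to 41.1%.

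A promoter window of 300 bases around the Muc1 gene start (RefSeq, GRCm38.p6, chr3:89228806-89229105, plus strand) was searched on both strands. The search was for the consensus of grainyhead-like factors, AACCGGTT, and for the looser form AACCNGTT. Only the 250 bases before the gene start, chr3:89228806-89229055, are shown, and they hold the only match. They are shown because Muc1 was the gene with the largest difference and Grhl2 encodes such a factor. The capitals mark the match, whose reverse strand reads as the looser form.
Muc1 promoter: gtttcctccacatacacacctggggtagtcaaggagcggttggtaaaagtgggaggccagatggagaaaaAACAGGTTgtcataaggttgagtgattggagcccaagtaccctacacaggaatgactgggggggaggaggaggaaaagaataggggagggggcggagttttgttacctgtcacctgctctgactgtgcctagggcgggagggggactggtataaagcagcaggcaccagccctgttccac
The match began 180 bases before the gene start. In windows of 300 bases around the starts of all 32851 listed promoters, AACCGGTT occurred in 48 (0.146%) and AACCNGTT, which includes it, in 686 (2.09%). The listed promoters of Galnt3, Galnt7, Galnt11, Muc4 and Muc20 held neither. A match describes the letters only, and no binding was measured.

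Muc4 (Entrez 140474, chr16:32735886-32782391), a large membrane mucin whose rat form binds the receptor ErbB2, was at 85.4, 82.2 and 94.96 CPM in Grhl2_cKO replicates 1, 5 and 10, against 96.9, 98.4 and 86.9 CPM in Control replicates 1, 3 and 7. The groups overlapped, since Grhl2_cKO replicate 10 lay above Control replicate 7. The level was 93.1% of Control with an interval of 83.1% to 104.3% (log2 fold change −0.10 ± 0.07, edgeR adjusted p = 0.698).

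Muc20 (Entrez 224116, chr16:32777419-32797435), a membrane mucin whose human form binds the receptor MET, was barely detected, with 13, 9 and 8 counts in Grhl2_cKO and 5, 14 and 10 counts in Control. Its level was 96.2% of Control with an interval of 51.4% to 179.9%, so a change of moderate size in either direction was not detectable at this depth. Muc20 and Muc4 are neighbours on chromosome 16 on opposite strands, and in GENCODE M21 their exons share 627 bases, which is 15.6% of the exonic bases of Muc20 and 5.33% of those of Muc4. The library kit marks strand, but whether featureCounts used strand was not given in the sources used here, and the few Muc20 counts are uncertain.

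The transferases that act on bare peptides and are found in most tissues, Galnt1 and Galnt2, varied little. Galnt1 (Entrez 14423, chr18:24205321-24286816) had 189, 195 and 191 CPM in Grhl2_cKO replicates 1, 5 and 10, against 180, 199 and 180 CPM in Control replicates 1, 3 and 7. Galnt2 (Entrez 108148, chr8:124231394-124345722) had 196, 197 and 195 CPM in Grhl2_cKO, against 196, 217 and 216 CPM in Control. Both genes overlapped between the groups, at 102.8% of Control for Galnt1 (interval 94.1% to 112.3%) and 93.5% for Galnt2 (85.6% to 102.0%). Of the exonic bases of Galnt2, 90% are shared with a read-through gene model on the same strand, Gm20388, which has no row of that symbol in the table.

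Galnt3 (Entrez 14425, chr2:66082766-66125056), known for protecting the hormone FGF23 from cleavage, had 56.6, 54.6 and 56.2 CPM in Grhl2_cKO, against 54.5, 60.2 and 60.4 CPM in Control (95.6% of Control, 86.3% to 105.9%). Galnt11 (Entrez 231050, chr5:25222872-25265918), which in frog embryos glycosylates Notch and affects the choice between motile and immotile cilia, had 29.7, 31.7 and 29.4 CPM in Grhl2_cKO, against 31.7, 31.1 and 31.9 CPM in Control (95.9%, 85.7% to 107.2%). Neither gene separated the groups, although the ciliated markers did. Galnt12 (Entrez 230145, chr4:47091894-47123058), altered in some human colorectal cancers, had 26.4, 26.3 and 28.8 CPM in Grhl2_cKO, against 29.1, 28.5 and 31.8 CPM in Control (91.2%, 80.4% to 103.4%).

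Galnt4 and Galnt7 are known for acting on peptides that already carry a GalNAc. Galnt4 (Entrez 14426, chr10:99108135-99113247) had 36.8, 37.8 and 33.2 CPM in Grhl2_cKO, against 37.0, 37.5 and 40.5 CPM in Control (93.7% of Control, 82.9% to 105.9%). Galnt7 (Entrez 108150, chr8:57523825-57653055) had 39.3, 51.9 and 47.3 CPM in Grhl2_cKO, against 35.1, 44.9 and 43.2 CPM in Control (112.2%, 93.4% to 134.7%). Galnt7 was the most variable of the 7 transferases followed here, with replicate 1 the lowest library in each group and a coefficient of variation of 13.7% in Grhl2_cKO and 12.8% in Control. Across the 7 transferases the edgeR adjusted p ran from 0.568 to 0.908, and every interval lay between 80.4% and 134.7% of the Control level. Galnt4 shares 8.25% of its exonic bases with Poc1b on the same strand, and Galnt7 1.87% with AW046200 on the other strand.

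**Figure D4:**
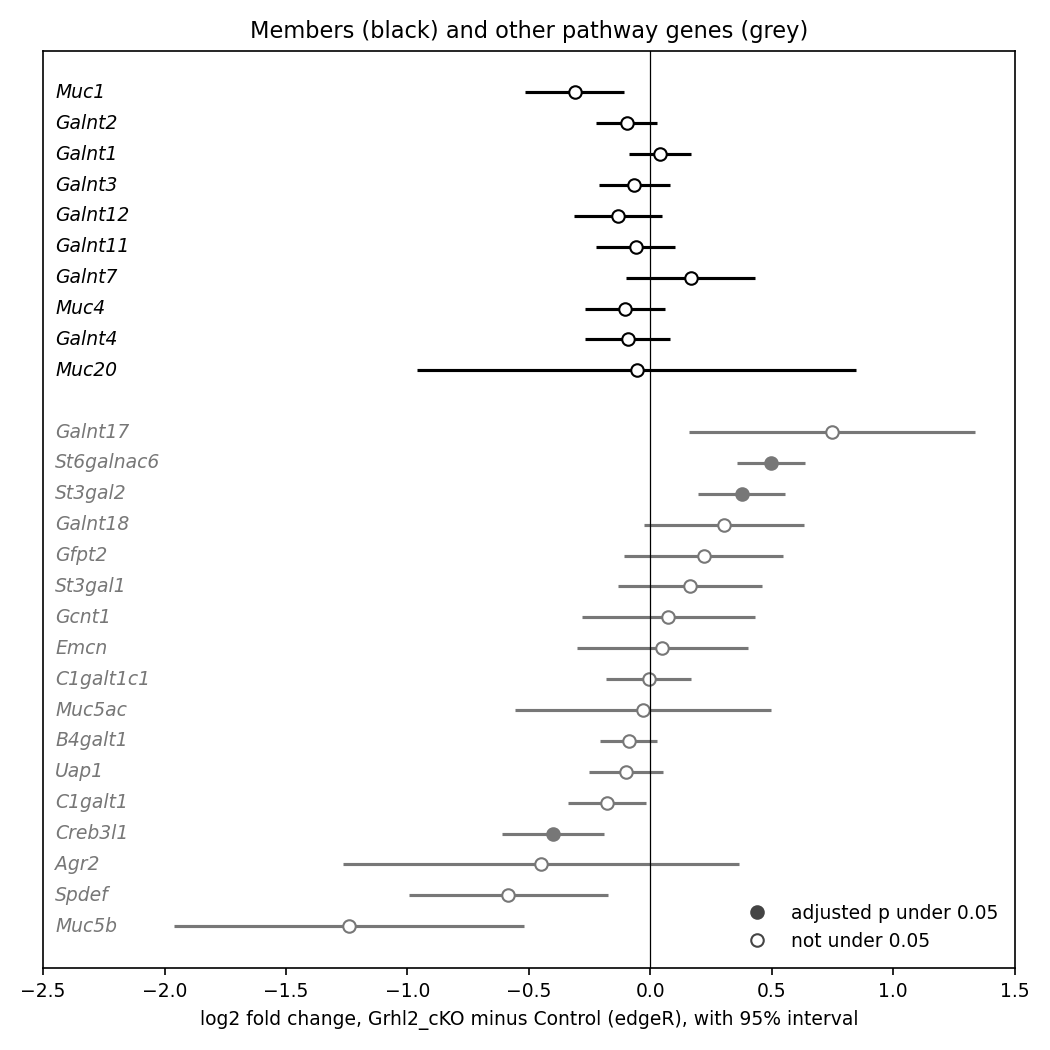
Log2 fold change of Grhl2_cKO minus Control (horizontal axis, edgeR estimate with 95% interval) for the 10 genes (black) and the named other genes of the pathway (grey), with filled points where the adjusted p was under 0.05. The 10 black points are open, from −0.31 for Muc1 to 0.17 for Galnt7, and the filled points are St6galnac6, St3gal2 and Creb3l1.

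The rest of the pathway was read from 7 lists of 68 genes, of which 67 had a row, 39 passed the filter and 28 did not. Of the 39 tested genes, 2 were higher in Grhl2_cKO and 1 was lower, which is 7.69% beside 3.59% of all tested genes, and the median log2 fold change was 0.00. Among the 6 tested of 12 other GalNAc transferases, 0 passed the edgeR threshold and 1 had an unadjusted p under 0.05. Galnt17 had 1.56, 1.99 and 1.60 CPM in Grhl2_cKO, against 1.20, 0.973 and 0.903 CPM in Control (0.75 ± 0.26, adjusted p = 0.213). Galnt18 had 80.3, 65.4 and 87.5 CPM in Grhl2_cKO, against 79.1, 52.9 and 57.5 CPM in Control (0.30 ± 0.15, adjusted p = 0.441), and without Control replicate 1 it passed the edgeR threshold, with an adjusted p of 0.0368.

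Core extension, in which C1galt1 adds galactose with the help of its chaperone C1galt1c1, held no gene past the threshold among 7 tested of 9. At an unadjusted edgeR p under 0.05 there was 1 gene, C1galt1, and log2 fold changes in the list ran from −0.18 to 0.56. C1galt1 had 59.95, 64.5 and 61.7 CPM in Grhl2_cKO, against 63.8, 74.3 and 72.6 CPM in Control (−0.18 ± 0.07, edgeR adjusted p = 0.299). C1galt1c1 had 27.7, 26.7 and 28.9 CPM in Grhl2_cKO, against 29.5, 27.6 and 26.7 CPM in Control. Gcnt1, which opens the core 2 branch, had a log2 fold change of 0.07 ± 0.16, and B4galt1, a galactosyltransferase, −0.09 ± 0.05. Gcnt3, another branching enzyme, was near the floor with 3, 3 and 0 counts in Grhl2_cKO and 4, 1 and 1 counts in Control and was not tested. The 10 genes that supply sugar nucleotides all passed the filter and 0 passed the edgeR threshold, with 0 at an unadjusted p under 0.05 and a median of −0.03. In this list the 2 smallest p belonged to Gfpt2, of the first step of UDP-GlcNAc synthesis (0.22 ± 0.15, adjusted p = 0.667), and Uap1, of its last step (−0.10 ± 0.07, adjusted p = 0.677).

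Of 12 capping enzymes 8 were tested: 2 were higher in Grhl2_cKO, 0 were lower, and 3 had an unadjusted p under 0.05, while 3 of the 8 fold changes lay below 0. St6galnac6, a sialyltransferase that acts on GalNAc residues, mainly of gangliosides, had 110, 108 and 105 CPM in Grhl2_cKO, against 71.3, 81.6 and 76.0 CPM in Control. It rose 1.41-fold, with an interval of 127.9% to 155.3% of Control (log2 fold change 0.49 ± 0.06, edgeR adjusted p = 0.00219), and passed the threshold in all 14 alternative fits. St3gal2, which adds sialic acid to the galactose of core 1 and of gangliosides, had 30.0, 27.9 and 27.3 CPM in Grhl2_cKO, against 22.9, 21.7 and 21.2 CPM in Control. It rose 1.30-fold (0.38 ± 0.08, edgeR adjusted p = 0.0312). The call was lost without any 1 of Grhl2_cKO replicates 1 (adjusted p = 0.1), 5 (0.0975) and 10 (0.0766) or of Control replicates 3 (0.131) and 7 (0.108). It was also lost with sex as a covariate (0.0505). St3gal1, the other main capping enzyme of core 1, had a log2 fold change of 0.16 ± 0.13 (adjusted p = 0.760). Fut1, a fucosyltransferase named after its values were seen, had the fold change farthest below 0 in the list, with 0.841, 0.898 and 0.473 CPM in Grhl2_cKO, against 0.896, 1.28 and 1.55 CPM in Control (−0.76 ± 0.35, edgeR adjusted p = 0.395).

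Among the other membrane mucins, 1 of 7 measured passed the filter, Emcn, a sialomucin of blood vessels, whose log2 fold change was 0.05 ± 0.16 (adjusted p = 0.974 with edgeR). Endothelial markers summed to 168 to 181 CPM in Grhl2_cKO and 129 to 195 CPM in Control, with 0 of 7 past the threshold. Muc16, a mucin of mesothelium and airway, had 10, 5 and 5 counts in Grhl2_cKO and 10, 9 and 4 counts in Control and was not tested. Mesothelial markers, a list that includes Muc16, summed to 22.0 to 65.2 CPM in Grhl2_cKO and 43.7 to 84.4 CPM in Control, and the part of these cells in Emcn and Muc16 was not tested.

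Of the secreted mucins, 2 of 5 were tested and 0 passed the edgeR threshold, with 1 at an unadjusted p under 0.05. Muc5b, the gel-forming mucin of airway secretory cells, had 28, 19 and 15 counts in Grhl2_cKO, against 50, 55 and 30 counts in Control. That was 42.3% of the Control level, with an interval of 25.7% to 69.7% (−1.24 ± 0.32, adjusted p = 0.0727), and every Grhl2_cKO library lay below every Control library. It passed the threshold without a filter (0.0375), with DESeq2 (0.0376) and without Control replicate 7 (0.0379), and its adjusted p reached 0.243 in the other fits. The secretory cell markers given above moved with it, and their part was not tested. Muc5ac had 2.64, 1.67 and 2.43 CPM in Grhl2_cKO, against 2.54, 2.19 and 2.19 CPM in Control (−0.03 ± 0.24, adjusted p = 0.991).

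Of 12 genes of mucous cells, 5 were tested, 1 was lower and 0 were higher, with 3 at an unadjusted p under 0.05 and fold changes on both sides of 0. Creb3l1, a membrane-bound transcription factor of secretory cells, had 26.7, 22.2 and 23.8 CPM in Grhl2_cKO, against 29.6, 34.1 and 32.2 CPM in Control. It fell to 75.7% of the Control level (log2 fold change −0.40 ± 0.09, edgeR adjusted p = 0.0453). The call was lost without Grhl2_cKO replicates 5 (0.183) or 10 (0.16) and without Control replicates 3 (0.194) or 7 (0.117), and also with total-count scaling (0.0519) and with sex as a covariate (0.0515). Spdef, a regulator of goblet cells, had 4.63, 3.98 and 3.31 CPM in Grhl2_cKO, against 5.82, 5.17 and 6.90 CPM in Control (−0.59 ± 0.18, adjusted p = 0.148). Agr2, which helps fold mucins in the endoplasmic reticulum, differed by −0.45 ± 0.37 (adjusted p = 0.755). The other 2 tested genes of the list, named after their values were seen, lay above 0. Foxa3, a transcription factor of goblet cells, had 3.42, 3.02 and 4.08 CPM in Grhl2_cKO, against 2.09, 2.49 and 2.19 CPM in Control (0.63 ± 0.20, adjusted p = 0.1598), and these groups did not overlap. Fcgbp, a protein secreted into mucus, had a log2 fold change of 0.05 ± 0.21.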

How the data were processed

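Raw read counts per gene were deposited by the authors with a gene length, in 1 table with Entrez identifiers. Per the submitters' processing notes, bcl2fastq 2.17.1.14, featureCounts, edgeR 3.16.5, limma 3.30.12 and build mm10 were used. The aligner, the strand setting and the treatment of reads with several positions were not given in the sources used here.

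Of 27179 rows, 25275 were matched to a RefSeq symbol. Genes were filtered with edgeR 4.0.16 filterByExpr by group (minimum count 10), scaled by TMM and tested in all 6 libraries with glmQLFit and glmQLFTest (R 4.3.3), with Benjamini-Hochberg adjustment over 14842 genes and a threshold of 0.05; 12337 rows were not tested. Fold changes are Grhl2_cKO minus Control. SE is the log2 fold change over the root of F, and 95% intervals use the t quantile on the fit's degrees of freedom. The procedure was tested on simulated data, in which the changes were larger than those of the 10 genes. That test does not cover changes of their size. Counts without molecular identifiers are not independent molecules, so floors of 3 counts cover counting error only.

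The 10 genes and all gene lists were chosen with earlier results of these data known. Named beside them are Grhl2, Epcam, genes past the threshold in each pathway list, at least 2 per list by smallest p among those tested, and C1galt1, C1galt1c1, St3gal1, Gcnt1, Gcnt3, Muc16, Muc5ac, Muc5b, Spdef and Agr2. The 14 alternatives were RLE and total-count scaling, no filter, a filter of 1 CPM in 3 libraries, robust quasi-likelihood, DESeq2 1.42.0, limma-voom (limma 3.58.1), sex as a covariate and each library left out.

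Muc21 and Muc19 were matched through synonyms, as Gm9573 and Smgc. The table's length for Muc16 is 1032 bases, so its level per kilobase, which enters only the summed mucin level, is uncertain. Promoters came from RefSeq (GRCm38.p6), with an entry for 6 of the 10 genes. Coding windows came from GENCODE M21. The genotype groups share only replicate number 1, and the labels do not say that equal numbers form a pair.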

Additional observations from a re-analysis of the deposited data

How the results depend on the processing

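Over the 14 alternatives of 29 named genes, 377 of 405 fits kept direction and side of the threshold, 12 lost a call, 5 gained one and 11 changed sign. Among the 10 followed genes, the count called was 0 in every fit except DESeq2, which called 1, as lower (Muc1). With 1 library left out, the count of all called genes was 246 to 501 (533 with all 6), of higher ones 77 to 221 (180) and of lower ones 165 to 336 (353). Dropping Grhl2_cKO replicate 5 gave 249 calls and dropping replicate 10 gave 246, while the fits lacking Control replicates 3 or 7 gave 293 or 325. In the pathway lists 3 genes were called. This count was 5 without a filter, 4 with DESeq2, 2 with total-count scaling and 1 with sex as a covariate. It was 1 to 4 with 1 library left out. Of the 3 genes, the higher ones (2) became 1 with sex and 1 to 3 with 1 library left out. The lower one (1) became 0 with total-count scaling, 3 without a filter, 2 with DESeq2, 0 with sex and 0 to 1 with 1 library left out. Fewer libraries were in the left-out fits; the cause was not tested otherwise.

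The sign changed only in genes near 0. With 1 library left out, log2 fold changes ran from −0.29 to 0.24 for Muc20, −0.10 to 0.19 for Emcn, −0.16 to 0.14 for Muc5ac, −0.039 to 0.042 for C1galt1c1 and −0.0039 to 0.15 for Gcnt1. C1galt1c1 was also at 0.00047 with RLE scaling and 0.00067 with DESeq2. Depth limited Muc20, Muc5b and the untested genes, which had few counts per library. No paired analysis was made, because the labels used here name no litters or pairs.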

Other observations

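Of the 28 pathway genes that did not pass the filter on low counts, the counts of the groups did not overlap in 4, which are given here because of that. They were lower in Grhl2_cKO in 3 (10.7%) and higher in 1 (3.57%), beside 2.43% and 3.12% of all 5770 untested rows with at least 1 count. The 28 also include genes at 0 in every library, such as Bpifa1 and Clca1, so these shares rest on unlike sets of rows. Fut2, a fucosyltransferase that caps mucin chains, had 3, 4 and 4 counts in Grhl2_cKO replicates 1, 5 and 10, against 14, 10 and 11 counts in Control replicates 1, 3 and 7. Bpifb1, a secreted protein of airway mucous and secretory cells, had 0, 0 and 1 counts in Grhl2_cKO, against 8, 7 and 4 counts in Control. Ern2, a stress sensor of the endoplasmic reticulum in mucous cells, had 3, 2 and 2 counts in Grhl2_cKO, against 8, 4 and 5 counts in Control. Muc2, a gel-forming mucin best known from the intestine, lay the other way, with 3, 4 and 4 counts in Grhl2_cKO, against 0, 2 and 2 counts in Control. These genes were chosen for their separation after the values were seen, and several libraries were at or near the floor of 3 counts.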
